A study of Canis lupus familiaris with 23 samples.

Results

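The 9 genes that serve as markers of liver function, ALB, GC, RBP4, APOC3, BHMT, KNG1, F11, PROC and FGG, were followed across normal canine organs, osteosarcomas and osteosarcoma cell lines. Every probe set annotated to 1 of these 9 genes was taken, which gave 22 of the 23836 probe sets tested, for 9 of the 6540 genes with a symbol on the array. The genes were selected with their levels in these samples already known, for their signal in liver and, in the case of RBP4, in tumors. Their levels in liver, the other organs and tumors are therefore given as a description with no test.

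The 23 samples were hybridized to Affymetrix Canine Genome arrays. Tumor was a primary osteosarcoma, a bone-forming cancer, taken from a pet dog at definitive surgery before any chemotherapy (n = 15). Cell line stood for canine osteosarcoma cells in culture, labelled D1-012706 and D2-012706 (n = 2, each line once). Liver, kidney and lymph node were normal organs of research colony dogs, with 2 samples each that the study describes as biological replicates and not pools. Normal bone was not among the samples, and the labels do not say whether same-numbered organ samples came from the same dog, nor the ages of the animals. All values are RMA values, which are normalized expression values on the log2 scale, so that 1 unit is a doubling. A level is comparable between samples for the same probe set and not between probe sets. In bulk tissue, fewer cells of a type and less RNA per cell cannot be told apart.

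Hepatocytes secrete most of the proteins of blood plasma. ALB encodes albumin, the main carrier of plasma, GC the vitamin D binding protein, RBP4 the carrier of retinol and APOC3 an apolipoprotein of triglyceride-rich particles. KNG1 encodes kininogen, F11 a coagulation factor of the contact pathway, PROC the anticoagulant protein C and FGG the gamma chain of fibrinogen, which assembles with the alpha and beta chains made from FGA and FGB. BHMT encodes an enzyme that remethylates homocysteine with betaine. Kidney tubule cells share some of these genes with the liver, and RBP4 is also known from adipose tissue.

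The arrays differed in the 5′ signal of the control probe sets, and the cause was not tested. The 5′ index, the mean difference between 3′ and 5′ control probe sets of actin and Gapdh, was above 1.5 on 7 tumor arrays (1, 4, 7, 8, 10, 12 and 14) and on replicate 1 of each organ, and these are called low 5′ arrays here. The other 8 tumors, replicate 2 of each organ and both cell lines had full 5′ signal. The labelled organs carried their own markers. The mean level of 9 kidney tubule genes was 7.90 to 8.24 in kidney and 4.99 to 5.62 in liver, lymph node and tumors, and that of 5 lymphocyte genes was 6.87 to 7.87 in lymph node and 4.91 to 5.71 in the other organs and the tumors. The mean level of 19 apolipoprotein and plasma carrier genes was 8.96 to 9.12 in liver and 5.20 to 5.75 in kidney, lymph node and tumors.

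A probe set was called liver-restricted where the lower liver array lay at least 2 log2 units above every array of the other groups, and liver-highest where both livers were highest by less than that. By this definition 11 of the 22 probe sets were liver-restricted, 6 were liver-highest and 5 were neither. ALB, GC, FGG, KNG1 and PROC had at least 1 liver-restricted probe set, and APOC3, F11, BHMT and RBP4 had none. The term states the gap to the next array and not an absence of signal elsewhere. The KNG1 probe sets so called also had signal in kidney, and FGG had signal in single tumors. Kidney shared the signal, with its lower array at least 2 log2 units above the higher lymph node array, at 5 probe sets (APOC3, 2 of KNG1, F11 and BHMT). The cell lines shared it at 1 probe set, of RBP4, and the tumors at 0. RBP4 in tumors was just under the border, with tumor 13, the lowest, 1.86 above the higher lymph node array. The border of 2 units fell between PROC, whose liver gap to the next array was 2.36, an FGG probe set at 2.23, and BHMT at 1.47.

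**Figure D1:**
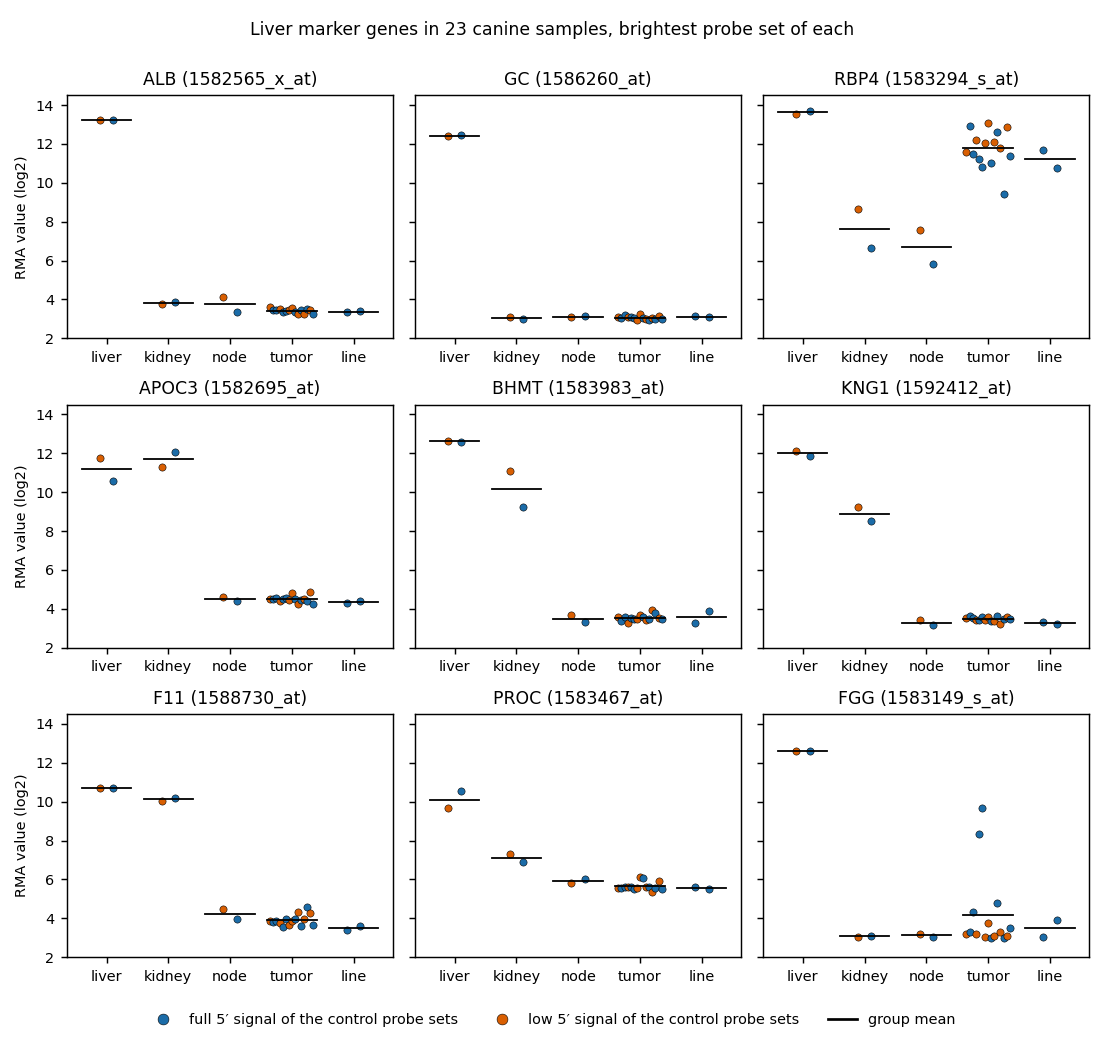
RMA values (log2, y axis) of the brightest probe set of each of the 9 genes in liver, kidney, lymph node (node), tumor and cell line (line), 1 point per array, coloured by the 5′ signal of the control probe sets, with a line at the group mean. ALB and GC stood out in liver alone, APOC3, BHMT, KNG1 and F11 also in kidney, RBP4 in tumors and cell lines, and FGG in tumors 5 and 6.

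Albumin and the vitamin D binding protein were liver-restricted with no tumor near the liver level. ALB (1582565_x_at) was at 13.22 in both livers. It was 3.75 and 3.88 in kidney, 4.12 and 3.37 in lymph node, 3.36 and 3.39 in the cell lines and 3.23 to 3.61 in tumors, with a median of 3.45. GC (1586260_at) was at 12.39 and 12.48 in liver and between 2.95 and 3.26 on every other array. The second GC probe set (1585132_at) was at 9.30 and 9.87 in liver and at most 3.16 elsewhere. At these 3 probe sets the livers and all other arrays were separated by more than 6 log2 units.

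The 4 ALB probe sets did not all follow the gene. The second (1584004_x_at) was at 12.37 and 12.45 in liver and at most 3.92 elsewhere. Another (1598422_x_at) reached only 4.02 and 4.07 in liver against at most 3.51 elsewhere, and the last (1592737_at) spanned 0.47 log2 units over all 23 arrays, 3.34 and 3.28 in liver. These 2 carried little or no liver signal.

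RBP4 was high outside the liver, in tumors and both cell lines, and lower in kidney and lymph node. Its brighter probe set (1583294_s_at) was at 13.57 and 13.70 in liver, and the 15 tumors ranged from 9.44 (tumor 13) to 13.08 (tumor 8) with a median of 11.77. The cell lines were at 11.70 and 10.76, kidney at 8.66 and 6.62, and lymph node at 7.59 and 5.84. In order of level, liver was first, the tumors and cell lines overlapped below it, and kidney and lymph node overlapped at the bottom. The mean difference was 4.12 ± 0.69 log2 units between tumors and kidney (SE, limma), 5.06 ± 0.69 between tumors and lymph node and -1.87 ± 0.69 between tumors and liver. These differences are the ones RBP4 was selected on.

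The low 5′ arrays of kidney and lymph node gave the higher RBP4 value in each organ, so tumors were also set against the organs within each class. Among low 5′ arrays the 7 tumors ranged from 11.56 to 13.08, against 8.66 in kidney and 7.59 in lymph node. Among full 5′ arrays the 8 tumors ranged from 9.44 to 12.91, against 6.62 in kidney and 5.84 in lymph node. In both classes every tumor was above kidney and lymph node and below liver.

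The second RBP4 probe set (1595947_at) showed a different pattern. It was at 7.09 and 5.69 in liver, 4.53 (tumor 6) to 7.23 (tumor 14) in tumors with a median of 5.72, and 5.24 to 5.58 in kidney, lymph node and cell lines. The tumors overlapped with liver and with every other group at this probe set, while the livers lay above kidney, lymph node and cell lines. The high signal of RBP4 in tumors thus rests on 1 of its 2 probe sets.

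**Figure D2:**
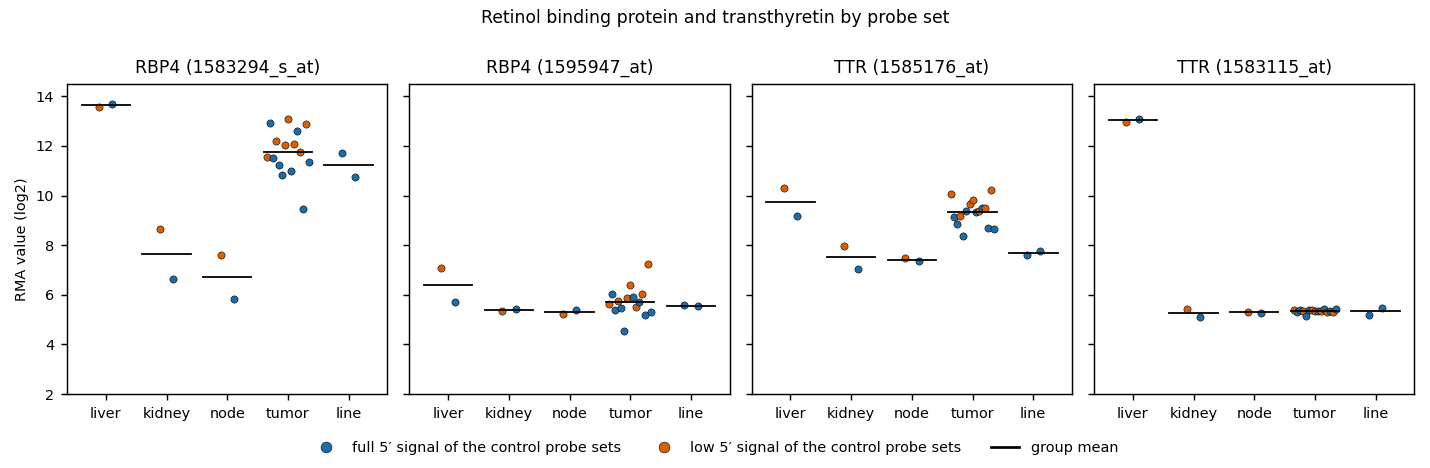
RMA values (log2, y axis) of both RBP4 probe sets and of 2 of the 5 TTR probe sets by group, 1 point per array, coloured by 5′ signal, with a line at the group mean. RBP4 1583294_s_at lay at 9.44 to 13.08 in tumors and at most 8.66 in kidney and lymph node, while at RBP4 1595947_at the tumors overlapped with every other group. TTR 1585176_at was raised in tumors and TTR 1583115_at in liver alone.

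TTR, transthyretin, binds RBP4 in plasma. Its probe set with the highest mean (1585176_at) was at 10.30 and 9.18 in liver, 8.35 to 10.21 in tumors, 7.98 and 7.05 in kidney, 7.49 and 7.35 in lymph node and 7.61 and 7.76 in the cell lines. The other 4 TTR probe sets were high in liver only. One of them (1583115_at) was at 12.98 and 13.10 in liver and at most 5.48 elsewhere. Any statement on TTR outside liver therefore depends on 1585176_at, and the 5 probe sets of the gene disagree. The carrier RBP4 and its plasma partner were high together in tumors only at 1 probe set of each.

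Variation of RBP4 among the 15 tumors was set against the mean scores of osteoblast, adipocyte and macrophage genes. With 8 osteoblast genes, RBP4 correlated at r = -0.49 (permutation p = 0.061, adjusted p = 0.18 over 3 relations, two-sided; Spearman rho = -0.51, permutation p = 0.057, adjusted p = 0.17). Without the 2 tumors farthest from the median score r was -0.69. It was -0.76 in the 7 low 5′ tumors (exact permutation p = 0.056, adjusted p = 0.17) and -0.63 in the 8 full 5′ tumors (exact permutation p = 0.093, adjusted p = 0.23). With 7 adipocyte genes r was 0.022 (permutation p = 0.93, adjusted p = 0.93; rho = 0.011, permutation p = 0.98, adjusted p = 0.98), and -0.22 without the 2 farthest tumors. It was 0.68 in the low 5′ tumors (exact permutation p = 0.12, adjusted p = 0.18) and -0.061 in the full 5′ tumors (exact permutation p = 0.88, adjusted p = 0.88). With 10 macrophage genes r was 0.32 (permutation p = 0.25, adjusted p = 0.37; rho = 0.37, permutation p = 0.18, adjusted p = 0.27), and 0.36 without the 2 farthest tumors. It was -0.088 in the low 5′ tumors (exact permutation p = 0.92, adjusted p = 0.92) and 0.54 in the full 5′ tumors (exact permutation p = 0.15, adjusted p = 0.23). None of the 3 relations passed 0.05 after adjustment. The mean level of the adipocyte genes was 5.08 to 8.05 in tumors and 5.19 to 5.20 in the cell lines, where RBP4 was at 10.76 and 11.70.

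The genes whose pattern over the 15 tumors was most like that of RBP4 were ZNF423 (Pearson r = 0.84), CD248 (0.82), THBS2 (0.81), FBLN2 (0.80) and OSBPL6 (0.80). CD248 is a surface protein of stromal cells, and THBS2 and FBLN2 are proteins of the extracellular matrix. The most opposite were EPB41L4B (r = -0.89), MEF2C, a transcription factor (-0.89), and CPED1 (-0.87). Over all 23 samples, which differ in tissue, the genes most like RBP4 were FN1, fibronectin (0.90), SERPINF1 (0.85), DLC1 (0.81), CALD1 (0.81) and TTR at 1585176_at (0.79). TTR and RBP4 correlated at 0.54 over the tumors alone, rank 239 among all genes. These correlations were chosen as extremes and share the arrays and their 5′ signal, so they carry no p.

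APOC3 was as high in kidney as in liver. Its single probe set (1582695_at) was at 11.78 and 10.60 in liver and at 11.29 and 12.08 in kidney. Lymph node, tumors and cell lines lay between 4.24 and 4.86. Liver and kidney overlapped (liver minus kidney -0.50 ± 0.28, SE), and both stood more than 5 log2 units above every other array. APOA4, next to APOC3 in the gene order of the dog assembly UU_Cfam_GSD_1.0, had group means between 5.03 and 5.35 in all 5 groups.

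BHMT was at 12.66 and 12.58 in liver and at 11.11 and 9.25 in kidney (1583983_at). Lymph node, tumors and cell lines were between 3.27 and 3.93. The kidney arrays differed by 1.86, the low 5′ array being the higher. Both kidneys lay above all lymph node, tumor and cell line arrays and below both livers (liver minus kidney 2.44 ± 0.35, SE). The genes most like BHMT over the 23 samples were KNG1 (r = 0.99), the gap junction gene GJB1 (0.99), AGXT2 (0.99), LEAP2 (0.99) and DIO1, a deiodinase of thyroid hormone (0.99). For ALB they were GC, CYP2E1, LOC479821, LOC489397 and TM4SF4, each at r = 0.997. In these correlations the 2 livers, or the livers and kidneys, lay far from all other arrays.

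Kininogen and coagulation factor XI were likewise shared between liver and kidney. KNG1 was at 12.13 and 11.87 in liver and 9.24 and 8.51 in kidney at its brightest probe set (1592412_at), and at 12.10 and 12.17 in liver and 8.28 and 8.66 in kidney at a second (1589112_at). The highest value elsewhere was 3.65. F11 (1588730_at) was at 10.68 and 10.72 in liver and at 10.05 and 10.18 in kidney, with lymph node, tumors and cell lines between 3.40 and 4.58. Liver exceeded kidney by 3.12 ± 0.18 and 3.66 ± 0.15 log2 units (SE) at these KNG1 probe sets and by 0.59 ± 0.27 for F11, and the arrays of both organs did not overlap at these probe sets. KLKB1, which encodes the plasma prekallikrein that circulates with kininogen, lies next to F11 and was at 11.03 and 10.05 in liver and 8.74 and 8.18 in kidney (1585743_at). FETUB, near KNG1 in the same assembly, had a mean of 11.92 in liver and 5.09 in kidney.

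PROC (1583467_at) was at 9.67 and 10.54 in liver. It was at 7.32 and 6.90 in kidney, 5.80 and 6.003 in lymph node, 5.63 and 5.51 in the cell lines and 5.35 to 6.13 in tumors. Kidney lay above lymph node by 0.90 log2 units at the closest arrays, which was under the border for a shared signal. Protein C was the member with the smallest separation of liver from lymph node among the brightest probe sets that were liver-restricted, 3.67 log2 units.

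FGG was the member with signal in single tumors. At its brightest probe set (1583149_s_at) both livers were high, at 12.62 and 12.59. Tumor 6 was at 9.68 and tumor 5 at 8.32, while the other tumors ranged from 2.97 to 4.80, the highest of them tumors 11 (4.80) and 3 (4.32). Kidney was at 3.04 and 3.11, lymph node at 3.20 and 3.06 and the cell lines at 3.05 and 3.93. Tumors 5 and 6 thus lay between liver and all other arrays.

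A further 2 FGG probe sets followed the same tumors. At 1592356_s_at tumor 5 was at 6.42 and tumor 6 at 8.93, the other tumors between 2.86 and 3.43, and the livers at 12.75 and 12.31. At 1603387_at tumor 5 was at 6.96 and tumor 6 at 8.56, the other tumors between 2.70 and 3.58, and the livers at 11.30 and 11.45. The last 2 FGG probe sets (1593107_at and 1593108_at) stayed between 3.64 and 4.53 in all tumors.

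**Figure D3:**
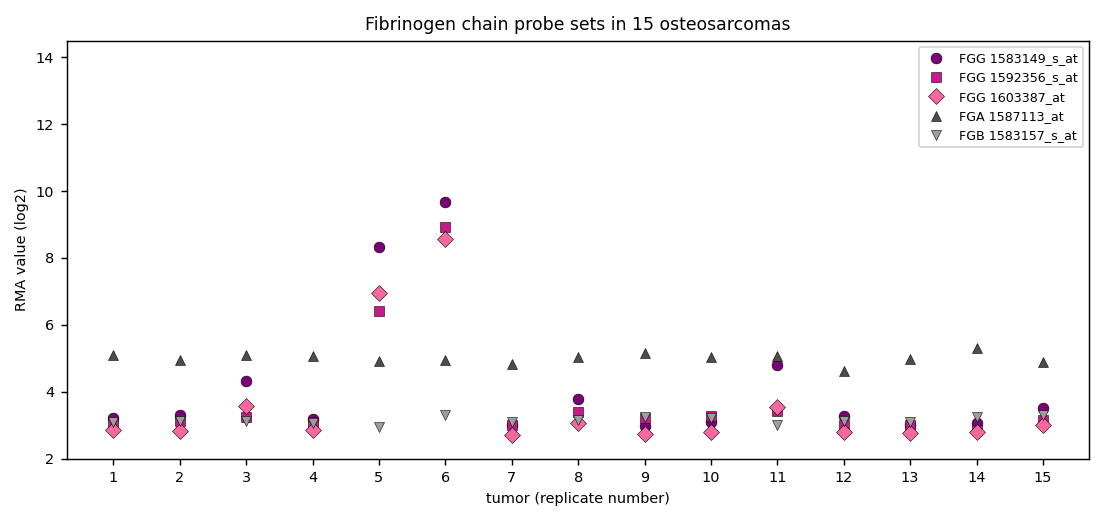
RMA values (log2, y axis) of 3 FGG probe sets and of 1 probe set each of FGA and FGB in the 15 tumors (x axis, replicate number). The FGG values of tumors 5 and 6 were between 6.42 and 9.68, while FGA stayed at 4.63 to 5.31 and FGB at 2.93 to 3.32.

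The genes of the other fibrinogen chains did not share this signal at the probe sets shown, 1 of 2 for FGA and 1 of 8 for FGB. FGA (1587113_at) was at 4.92 in tumor 5 and 4.94 in tumor 6, within the 4.63 to 5.31 of all tumors, against 12.71 and 12.63 in liver. FGB (1583157_s_at) was at 2.93 and 3.32 in these tumors, against 2.99 to 3.29 in the other tumors and 13.07 and 13.19 in liver. FGA lies next to FGG in the gene order. FGB at this probe set was also at 7.39 in kidney 2 and 3.39 in kidney 1, whereas ALB was at 3.88 and 3.75 there. Albumin was at 3.33 in tumor 5 and 3.39 in tumor 6, so the hepatocyte marker ALB was at its low level in both tumors. Both arrays had full 5′ signal and carried the Dap spike, a bacterial transcript added before labelling, at 8.53 and 7.23. Tumors 2, 11 and 15 also carried it above 7 and had FGG at 3.31, 4.80 and 3.50, and the part of the spike in the FGG signal was not tested.

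The 2 livers gave different values at some probe sets. Of the 22 probe sets 16 agreed within 1 log2 unit, and 4 were lower by more than 1.5 units in liver 1, the low 5′ array. The other 2, APOC3 (by 1.18) and RBP4 1595947_at (by 1.40), were higher in liver 1. FGG 1593107_at was at 6.33 in liver 1 and 8.70 in liver 2, KNG1 1590400_at at 5.52 and 9.26, KNG1 1598028_at at 4.499 and 6.08, and F11 1591413_at at 4.96 and 7.28. For F11 the kidneys were split the same way, at 3.54 in kidney 1 and 6.66 in kidney 2. The brightest probe sets of these same 3 genes differed by 0.26 or less between the livers. The low 5′ signal moved together with these low values, and its part in them was not tested. FGB 1583754_at showed the same split, at 7.35 in liver 1 and 12.07 in liver 2.

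**Figure D4:**
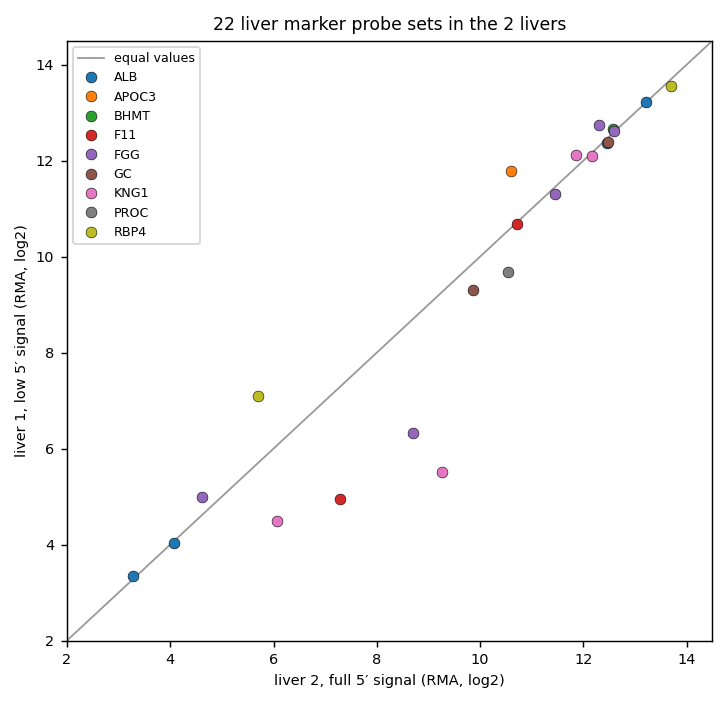
RMA values (log2) of the 22 probe sets in liver 2 (x axis, full 5′ signal) and liver 1 (y axis, low 5′ signal), coloured by gene, with the line of equal values. Of the points 16 lie within 1 unit of the line, and 4 probe sets of FGG, KNG1 and F11 lie more than 1.5 units below it.

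Cell lines were also tested against tumors, although the tumor level of RBP4 had a part in the choice of the members. Apart from RBP4, and FGG in single tumors, their brightest probe sets stayed near the lymph node level in both groups. A low count of calls was therefore likely from the choice of the members, and no conclusion on them is drawn from it. None of the 22 probe sets passed (0 of 22 at adjusted p under 0.01 in limma, and 0 at an unadjusted p under 0.05). Of all 23836 probe sets, 3.77% passed as higher in the cell lines and 2.5% as lower. RBP4 (1583294_s_at) differed by -0.54 ± 0.69 log2 units (SE, limma adjusted p = 0.65). The lowest adjusted p was 0.20, for F11 (-0.40 ± 0.20). With 2 cell lines the standard error of RBP4 leaves room for a difference of more than 1 log2 unit.

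The low 5′ tumors were also compared with the other tumors. Here too most members stayed near the lymph node level in all tumors, which left little that could differ. Again 0 of the 22 probe sets passed in limma, and 1 had an unadjusted p under 0.05. Of all 23836 probe sets, 0.541% passed as higher in low 5′ tumors and 2.64% as lower. The 1 probe set was RBP4 1595947_at, higher by 0.62 ± 0.26 (adjusted p = 0.18), and RBP4 1583294_s_at differed by 0.87 ± 0.42 (adjusted p = 0.25). FGG 1583149_s_at differed by -1.76 ± 0.92 (adjusted p = 0.29), with both tumors of high signal in the full 5′ class.

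Other genes of the members' pathways were followed in the same samples. The lists hold many genes known from the liver and were chosen with earlier results of these data known. A high count in liver is therefore a description and no independent support. Of 175 genes in 7 lists, 92 had a probe set of their own symbol. In liver against the mean of kidney and lymph node, 54 of the 92 were higher and 1 was lower (limma, adjusted p under 0.01), where 3.18% of all probe sets passed as higher and 1.56% as lower. Here and in the contrasts below, list genes are counted at their brightest probe set. The shares cover every probe set, 13149 of them without a symbol, so the sets are unlike. The count higher was 61 at a threshold of 0.05 and 65 with the mean of a gene's probe sets. Some of these calls were lost within each 5′ class, which holds 1 sample per organ, and without single organ samples. The gene that was lower, RARRES1, lost its call without kidney 1, liver 1, liver 2 or lymph node 1, when the count was 0.

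Coagulation and kinin genes were higher in liver in 7 of 10 cases, with a list median of 4.03 against -0.03 over all probe sets. They included SERPINC1, antithrombin (8.55 ± 0.16 log2 units, SE), F10 (7.97 ± 0.12), FGA (7.46 ± 0.17) and F9 (5.02 ± 0.21). FGB did not pass at its brightest probe set (2.46 ± 0.69, adjusted p = 0.030). Apolipoproteins and plasma carriers were higher in 14 of 19 (median 3.89), among them AFM, a neighbour of ALB (7.26 ± 0.14), APOC1 (7.19 ± 1.30), VTN, vitronectin (6.98 ± 0.23), and HPX, the haem carrier haemopexin (6.92 ± 0.24). AFP, the fetal albumin-like protein beside ALB, had a mean of 3.49 in liver and 4.24 in kidney. Acute phase and complement genes were higher in 10 of 17 (median 3.58), led by FETUB (7.05 ± 0.20), ITIH2 (6.47 ± 0.11), ITIH1 (6.14 ± 0.49) and HAMP, hepcidin (6.05 ± 0.16).

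The metabolic lists followed. Methionine, amino acid and urea cycle enzymes were higher in liver in 12 of 16 (median 2.56), with TDO2 of tryptophan breakdown (6.50 ± 0.13), GNMT of methionine metabolism (6.03 ± 0.44), HGD (5.18 ± 0.25) and ASS1 of the urea cycle (5.16 ± 0.35). Gluconeogenesis and bile acid genes were higher in 5 of 11 (median 2.19), with SLC27A5 (6.90 ± 0.31), the bile acid importer SLC10A1 (6.70 ± 0.15), PYGL (4.66 ± 0.70) and the bile salt pump ABCB11 (2.19 ± 0.14). Retinoid genes were higher in 5 of 17 and lower in 1 (median 0.43). RDH16 (5.21 ± 0.66), ALDH1A1 (3.53 ± 0.72), TTR at 1585176_at (2.27 ± 0.43) and BCO2 (1.79 ± 0.26) were higher, and RARRES1 was lower (-3.04 ± 0.68, adjusted p = 0.0056). Of the transcription factors 2 of 3 were higher, NR1H4, the bile acid receptor (3.64 ± 0.42), and FOXA2 (2.29 ± 0.25).

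**Figure D5:**
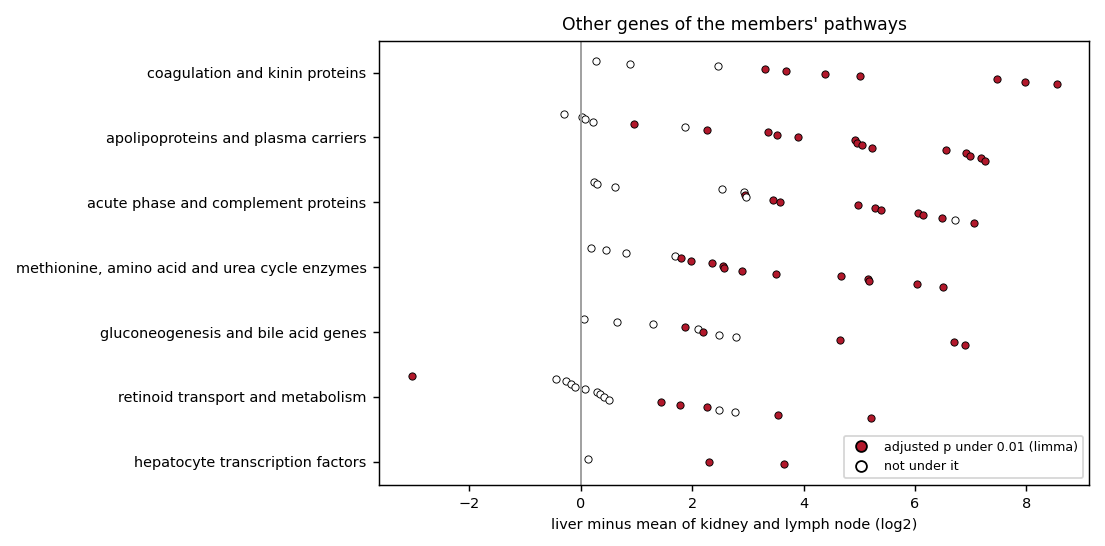
Difference between liver and the mean of kidney and lymph node (log2, x axis) for 92 genes in 7 lists (rows), 1 point per gene and list, filled where the limma adjusted p was under 0.01. TTR stands in 2 lists. Coagulation, carrier and acute phase genes reached more than 7 log2 units, and RARRES1 was the only filled point below 0.

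In tumors against the 6 normal samples, 16 of the 92 genes were lower and 1 was higher, where 2.93% of all probe sets passed as lower and 3.02% as higher. The spread in this pooled fit includes the differences between organs, so a gene high in a single organ passes less easily. By organ, in the 5-group fit, 65 of the 92 were lower in tumors than in liver (5.86% of all probe sets), 16 than in kidney (5.26%) and 1 than in lymph node (2.91%). The pooled count lower was 8 without liver 1, when 2 genes were higher, and 9 without liver 2. Amino acid enzymes gave 6 of the 16, among them ASS1 (-4.28 ± 0.83), HGD (-3.35 ± 0.74) and CTH (-3.04 ± 0.62), and retinoid genes gave 5, among them ALDH1A1 (-4.71 ± 0.85), RDH16 (-3.80 ± 0.71) and BCO2 (-1.499 ± 0.26). The others were FBP1 of gluconeogenesis (-4.73 ± 1.06), the glucose transporter SLC2A2 (-1.34 ± 0.27), NR1H4 (-4.04 ± 0.63), KLKB1 (-3.80 ± 0.52) and the complement protease CFI (-3.54 ± 0.73). RARRES1, named for its response to retinoids, was the gene that was higher (3.15 ± 0.60, adjusted p = 0.0015), at 9.52 to 12.37 in tumors and 5.45 to 10.91 in the organs, so that tumors and lymph node overlapped. Within either 5′ class alone RARRES1 did not pass, and the counts lower were 1 among low 5′ arrays and 0 among full 5′ arrays, with 1 sample per organ in each.

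In cell lines against tumors, 2 of the 92 genes were higher and 5 lower, beside 3.77% and 2.5% of all probe sets, so the number higher was no larger than the background. NR1H4 was higher by 2.39 ± 0.36 (adjusted p = 2.2e-04), at 7.68 in cell line 1 and 5.002 in cell line 2 against 3.71 to 4.15 in tumors. RDH11, a retinal reductase, was higher by 1.88 ± 0.38 (adjusted p = 0.0028). The complement genes SERPING1 (-3.27 ± 0.57), C1S (-3.24 ± 0.62) and C1R (-3.01 ± 0.50) were lower, as were ITIH2 (-0.39) and TTR at 1585176_at (-1.63 ± 0.38, adjusted p = 0.0067). ITIH2 was dim in tumors, at 4.96 to 5.26 against 11.35 in the lower liver. Its call was lost with median centring, without dim probe sets and with the robust trend. With the mean of a gene's probe sets ITIH2, C1S and TTR lost their calls. Of 10 macrophage marker genes 5 were also lower (median -2.80), their mean level being 4.69 to 4.89 in the cell lines and 6.88 to 9.34 in tumors, and of 8 osteoblast genes 1 was lower (median -0.87). The part of these cell types in the differences was not tested. Of these calls on pathway genes 0 were left without cell line 1, and without cell line 2 there were 2 higher and 1 lower, of which NR1H4 and C1R were among those above. A lone line is assumed in these fits to vary like the other groups. All 7 differences kept their sign, and NR1H4 was 1.06 without cell line 1 and 3.73 without cell line 2.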

How the data were processed

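Total RNA of 23 samples was labelled by the one-cycle protocol and hybridized at the same core, batched as a group. Per the labels and the study's methods, the authors normalized the arrays by RMA (affy), and the deposited values are log2 expression values from 2.52 to 14.2. The versions are not given in the sources used here. RMA forces a common distribution on all arrays and compresses dim signals, so differences near the bottom of the scale are underestimates. Precision is limited by the number of arrays.

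A total of 77 control probe sets was set aside and no filter on low values was applied, so all 22 member probe sets entered the fits. In the platform annotation 10549 probe sets have 1 symbol, 138 have several and 13149 have none. For each gene the probe set brightest on average over the 23 arrays was used, and all probe sets of the 9 members are described. In addition FGB 1583157_s_at and TTR 1583115_at, the brightest of these genes in liver, were shown. Tests used limma 3.58.1 in R 4.3.3 (lmFit, eBayes, two-sided, Benjamini-Hochberg over 23836 probe sets, threshold 0.01) on 5 groups, and on 15 tumors and 6 normal samples as 2 groups for tumor versus normal. Correlations over 15 tumors used 100000 permutations, and exact permutation within the 5′ classes. The fit was tested on simulated data. Members and lists were chosen with earlier results of these data known. Genes named from a list were those with the largest called differences, up to 4 in liver and 3 each way in the other contrasts, with a set of partner genes. FGG's most similar genes were added after its values were seen.

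Samples are named by group and replicate number. Deviations of same-numbered organ samples from their organ means correlated (kidney with liver 0.607, kidney with node 0.596, liver with node 0.530). Replicate 1 of each organ was also the low 5′ array, so pairing by dog and whatever lowered the 5′ signal cannot be told apart here. The main fit used no pairing, and a block by replicate number was fitted as an alternative. The tumors carry separate names in the labels, but no label gives the dog of an organ sample or repeat cultures of a line. The p-values reflect sample-to-sample spread alone. For tumor versus normal that spread includes the differences between organs. Alternatives were a replicate block, the 5′ index as covariate, each 5′ class alone, median centring, omission of dim probe sets, a robust trend in eBayes, a threshold of 0.05, the mean of a gene's probe sets, other borders and leaving out single samples.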

Additional observations from a re-analysis of the deposited data

Results flagged for a closer look

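The array carries control probe sets for CYP2E1, a hepatic cytochrome P450, which no comparison used. Signal there stood above that of the other samples in liver. The 3′ probe set was at 11.66 in liver 1 and 11.80 in liver 2, against 3.24 to 3.59 on the 21 other arrays. The middle probe set was at 10.53 and 12.51, against 4.75 to 5.33. The 5′ probe set was at 4.39 in liver 1, within the 3.78 to 4.42 of the other arrays, and at 11.48 in liver 2.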

How the results depend on the processing

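With the replicate block none of the 79 calls on pathway genes was lost, and some were gained: 58 genes were higher in liver instead of 54, and in cell lines 3 were higher instead of 2 and 6 lower instead of 5. No count of liver-restricted probe sets other than that with a border of 3 log2 units (6 instead of 11) left the range of 11 to 13. Member probe sets called in cell lines against tumors stayed at 0 in each alternative run, and so did those in low 5′ tumors. The cell line contrast could not be fitted on low 5′ arrays, which hold no cell line. In liver against the other organs, some genes called higher lost their call within both 5′ classes, among them TTR, APOC1 and ALDH1A1. FOXA2 and BCO2 lost theirs in low 5′ arrays. RARRES1, the gene called lower, lost its call within either class and without some single samples. Each class holds 1 sample per organ. In tumors against normal organs, the count higher was 0 in both 5′ classes and 1 to 2 without single samples, and the count lower was 0 in full and 1 in low 5′ arrays and 8 to 20 without single samples. These classes hold fewer samples. In cell lines against tumors, the count higher was 4 at a threshold of 0.05, 0 in full 5′ arrays and 0 to 3 without single samples, and the count lower was 11 at 0.05, 2 in full 5′ arrays, 2 with the mean of a gene's probe sets and 0 to 5 without single samples. RBP4 against the adipocyte score turned from 0.022 to -0.061 in full 5′ tumors, and against the macrophage score from 0.32 to -0.088 in low 5′ tumors. The cause was not tested.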

Other observations

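Some genes of the same lists varied widely among the tumors and were singled out after their values were seen. The acute phase gene SAA1 ranged from 4.13 in tumor 6 to 12.86 in tumor 15 and was at 4.22 and 11.29 in the cell lines. Complement C3 (1583409_s_at) ranged from 3.53 in tumor 13 to 10.35 in tumor 11, against 13.55 and 13.15 in liver. APOC1 (1583715_s_at) ranged from 5.16 in tumor 13 to 10.38 in tumor 9, with 3.63 and 3.46 in the cell lines. Tumor 6, the highest for FGG, was thus the lowest for SAA1.

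The genes most like FGG over the 15 tumors were BMX (r = 0.90), CHL1 (0.83), TSPAN8 (0.81), JAZF1 (0.81) and ACYP2 (0.80). The high values of tumors 5 and 6 weigh on these correlations.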
